A study of Homo sapiens with 6 samples.

Results

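The BCL2 family members examined here were 10 genes, chosen by symbol alone: the anti-death genes MCL1, BCL2L1 and BCL2, the effector genes BAX and BAK1, and the BH3-only genes PMAIP1, BIK, BID, BCL2L11 and BBC3. All 10 were among the 58735 genes measured, and 9 of them were among the 15319 genes whose counts were high enough to be tested. No expression value entered the choice, although the members were picked with earlier results of these data known. In short, MCL1 and BCL2L1 rose and PMAIP1 and BCL2L11 fell in AsPC-1 cells given MMP28, so that the summed pro-death over anti-death transcript level was 0.596 times that of the control. The calls of BCL2L1 and PMAIP1 held under all 21 alternative settings of the test, that of BCL2L11 under 20 and that of MCL1 under 18.

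RNA was sequenced from AsPC-1, an established human pancreatic cancer cell line labelled as wild type, in 2 groups of 3 libraries. Vector cells carried an empty lentivirus, and OE-MMP28 cells carried a lentivirus with the cDNA of MMP28, a secreted matrix metalloproteinase. Per the study's methods the overexpression vector also encoded GFP and puromycin resistance, and infected cells were selected with puromycin, without a statement of whether the result was a pool or a clone. The cells of both groups were thus the same line after lentiviral infection, and the comparison asked which transcripts differ when MMP28 is raised. The methods state triplicate samples for sequencing and, in general, repeated in vitro experiments, without saying whether these libraries came from separate cultures, so the p-values measure the spread between these libraries, which may be technical.

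BCL2 family proteins decide whether the outer membrane of the mitochondrion is opened during intrinsic apoptosis. BAX and BAK1 form the pores through which cytochrome c escapes, the guardians BCL2, BCL-XL (from BCL2L1) and MCL1 hold them in check, and the BH3-only proteins sense damage or stress and either block the guardians or engage the effectors directly. Epithelial cancers, pancreatic cancer among them, often lean on MCL1 and BCL-XL for survival. The values below are transcript levels, which do not report protein stability, cleavage of BID or phosphorylation, and gene-level counts do not separate the long and short splice forms of MCL1, BCL2L1 or BCL2L11.

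Library totals ran from 13633249 to 16691458 counts, so a count of 0 allowed at most 3 counts, or 0.180 to 0.220 CPM (counts scaled to the library total), with counting error alone covered. In Vector replicates 1 to 3, MMP28 stood at 5.17, 9.11 and 8.43 FPKM (fragment counts divided by gene length and library size), compared with 13.1, 13.9 and 15.1 FPKM in OE-MMP28, a log2 fold change of 0.90 ± 0.193 (SE; edgeR quasi-likelihood test, Benjamini-Hochberg adjusted p = 0.00226). The 6 ductal epithelium markers summed to 2575 to 3518 FPKM in Vector and 3566 to 4364 FPKM in OE-MMP28. KRT8, KRT18 and KRT19 led these sums, while KRT7, another keratin gene of the list, held only 0.597 to 2.22 FPKM. In both groups the 5 macrophage markers, the 5 fibroblast markers and the 3 endothelium markers each summed to at most 1.18 FPKM. PTPRC, CD163, COL1A2 and CDH5 were the lowest, with at most 1 count in a library. Other markers of these lists held more, with CD14 at 17 to 30 counts, CD68 at 1 to 9 and CSF1R at 0 to 5. COL1A1 held 2 to 11 counts, DCN 1 to 11 and VWF 7 to 19. PECAM1, another endothelium marker, went from 0, 4 and 4 counts to 13, 21 and 30 counts in OE-MMP28 (log2 fold change 2.79, edgeR adjusted p = 0.00361), at most 0.230 FPKM. The keratin gene KRT19 (log2 fold change 0.71) and the mucin gene MUC1 (log2 fold change 2.16) rose in OE-MMP28, and the part of these marker shifts in the values of the BCL2 family was not tested. In bulk RNA, fewer cells of a kind and less RNA per cell cannot be told apart.

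The start regions of the 3 members that moved most and have an entry in the RefSeq promoter table (GRCh38.p14) are shown, because their genes changed in the same comparison. Each window holds 250 bases before and 50 bases after an annotated start, printed 5′ to 3′ on the strand of the gene. PMAIP1 lies at chr18:59899746-59900045 on the plus strand, BCL2L11 at chr2:111120664-111120963 on the plus strand and BCL2L1 at chr20:31723914-31724213 on the minus strand. Capitals mark matches on either strand to the cAMP response element core TGACGT, the AP-1 site TGANTCA, the forkhead site TGTTTAC, the GC box GGGCGG or the E-box CACGTG.
PMAIP1: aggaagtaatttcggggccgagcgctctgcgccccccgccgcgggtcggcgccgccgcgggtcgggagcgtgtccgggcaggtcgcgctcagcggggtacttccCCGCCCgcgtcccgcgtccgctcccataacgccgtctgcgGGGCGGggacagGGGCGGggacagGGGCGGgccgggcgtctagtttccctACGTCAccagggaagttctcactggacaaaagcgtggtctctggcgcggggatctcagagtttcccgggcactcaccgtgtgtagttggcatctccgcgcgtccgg
BCL2L11: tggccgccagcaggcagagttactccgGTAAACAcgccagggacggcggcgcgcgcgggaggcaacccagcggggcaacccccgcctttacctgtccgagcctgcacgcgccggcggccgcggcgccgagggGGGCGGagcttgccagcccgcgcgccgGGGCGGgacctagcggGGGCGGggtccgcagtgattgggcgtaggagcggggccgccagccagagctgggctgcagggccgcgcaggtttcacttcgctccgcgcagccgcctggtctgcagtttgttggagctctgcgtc
BCL2L1: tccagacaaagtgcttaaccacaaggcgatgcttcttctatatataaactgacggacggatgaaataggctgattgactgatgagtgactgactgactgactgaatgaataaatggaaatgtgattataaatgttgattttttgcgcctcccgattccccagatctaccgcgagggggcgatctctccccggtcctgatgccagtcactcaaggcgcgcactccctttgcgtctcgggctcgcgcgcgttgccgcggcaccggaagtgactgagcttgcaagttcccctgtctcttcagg

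The PMAIP1 window held 1 cAMP response element core (read as ACGTCA) that begins at position -56 relative to the start, and 4 GC boxes. The BCL2L11 window held 1 forkhead site (read as GTAAACA) that begins at position -223, and 3 GC boxes. None of the 5 motifs was found in this BCL2L1 window, while the other BCL2L1 window of the table held 1 GC box, and the BAX window held 4 E-boxes and 2 GC boxes. Among all 35116 windows of the table, 7.98% held the cAMP response element core, 3.42% the forkhead site, 7.71% the AP-1 site, 7.26% the E-box and 45.0% the GC box. These are matches of letters only. Windows were matched for 8 of the 10 members, and none was matched for MCL1 or BIK.

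In the test across all genes, 4 of the 9 tested members passed an adjusted p of 0.05, against 23.4% of all genes tested. Of these, 2 were higher in OE-MMP28 (11.7% of all genes were called higher) and 2 were lower (11.6% of all genes). For 4 of the 10 members the FPKM ranges of Vector and OE-MMP28 were apart, against 38.1% of all genes tested. With so few members, these counts were not read as a property of the family. The median log2 fold change was -0.04 over the 9 tested members and 0.01 over all genes tested, so the family did not move one way as a whole.

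**Figure D1:**
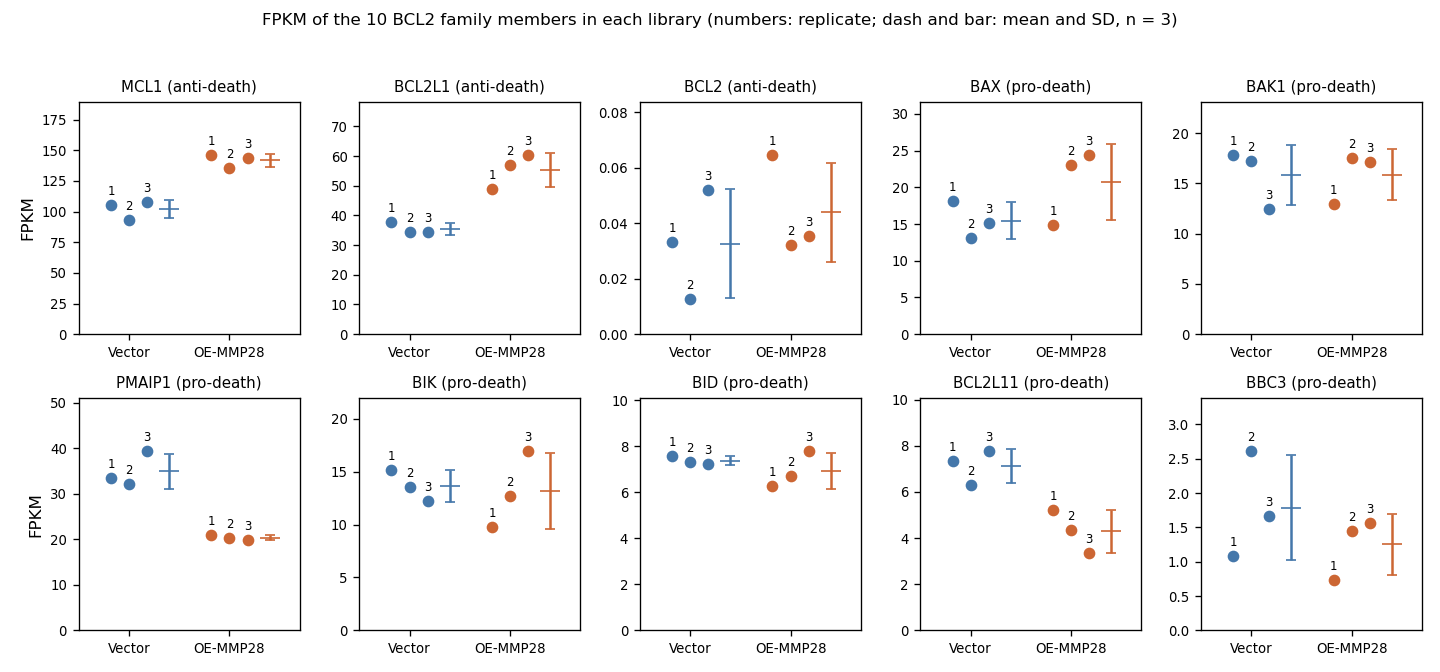
FPKM of each of the 10 members in the 6 libraries, 1 panel per gene with its own vertical axis from 0, in which numbered points are replicates and the dash with its bar is the mean and SD of 3 libraries. MCL1 and BCL2L1 lie higher in every OE-MMP28 library than in any Vector library, PMAIP1 and BCL2L11 lie lower, and the other 6 panels overlap.

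MCL1, a short-lived guardian that binds BAK1, BCL2L11 and PMAIP1, was the member with the highest level (ENSG00000143384, chr1:150574551-150579738, minus strand). Replicates 1 to 3 of Vector stood at 106, 93.5 and 108 FPKM, and those of OE-MMP28 at 146, 135 and 144 FPKM. Every OE-MMP28 library lay above every Vector library. The means were 102 ± 7.61 and 142 ± 5.58 FPKM (SD, n = 3 each), 1.40-fold higher (95% interval 1.14 to 1.71), with a log2 fold change of 0.48 ± 0.139 (SE) and an edgeR Benjamini-Hochberg adjusted p of 0.0160. The call was lost without Vector replicate 2 (log2 fold change 0.42, edgeR adjusted p = 0.0504), without Vector replicate 3 (0.52, 0.0504) and without OE-MMP28 replicate 2 (0.50, 0.0543), and over all 21 alternatives the adjusted p ran from 0.00455 to 0.0543.

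BCL2L1 encodes BCL-XL, a guardian that restrains both BAX and BAK1 (ENSG00000171552, chr20:31664452-31723989, minus strand). It stood at 37.7, 34.4 and 34.3 FPKM in Vector and at 48.9, 56.9 and 60.3 FPKM in OE-MMP28. Again the groups did not overlap, and the gap between the nearest libraries exceeded the spread of the Vector libraries but not that of the OE-MMP28 libraries. The rise was 1.58-fold (95% interval 1.27 to 1.95), a log2 fold change of 0.66 ± 0.147 (SE) with an edgeR Benjamini-Hochberg adjusted p of 0.00318. It was called under all 21 alternatives, with log2 fold changes from 0.59 to 0.73 and adjusted p from 0.000245 to 0.0289. The antisense RNA ABALON, looked at after the values were seen, covers 43.0% of the BCL2L1 exon length on the other strand and had 14 to 39 counts per library against 1542 to 3360 for BCL2L1. The library kit named in the labels does not mark strand and no strand setting was stated, so reads of the pair cannot be told apart there.

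BCL2 itself was almost silent in these cells (ENSG00000171791, chr18:63123346-63320128, minus strand). It had 6, 2 and 9 counts in Vector and 12, 6 and 7 counts in OE-MMP28, which is at most 0.0645 FPKM. The groups overlapped, edgeR without the filter on low counts gave a log2 fold change of 0.41 (adjusted p = 0.751), and a two-sided exact permutation test of FPKM gave p = 0.50, where 0.10 is the smallest value that 3 against 3 libraries allow. A difference in BCL2 was not detectable at this depth, and the gene did not pass the filter on low counts. BCL2 is the family's founding guardian and, with BAX, one of the apoptosis proteins the study examined by blot, so its transcript level is given here in full. The study reports more BCL2 protein on blots of cells overexpressing MMP28. Transcript counts this low neither bear that out nor go against it.

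The effectors did not pass the test. BAX, the cytosolic pore former that moves to mitochondria in death (ENSG00000087088, chr19:48954815-48961798, plus strand), stood at 18.2, 13.1 and 15.1 FPKM in Vector and at 14.8, 23.0 and 24.4 FPKM in OE-MMP28. OE-MMP28 replicates 2 and 3 lay above all Vector libraries while replicate 1 lay among them. The log2 fold change was 0.44 ± 0.191 (SE; 95% interval 0.04 to 0.84; edgeR Benjamini-Hochberg adjusted p = 0.104). BAX protein was also examined by blot in the study. Its text reports more BAX after MMP28 knockdown and states no direction for BAX under overexpression. The transcript estimate here is upward in overexpressing cells but did not pass the test, so it neither bears out the blot nor goes against it.

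BAX depended on single libraries. Without OE-MMP28 replicate 1 its log2 fold change was 0.62 (edgeR adjusted p = 0.0159), and without Vector replicate 1 it was 0.57 (edgeR adjusted p = 0.0439). The adjusted p ran from 0.0159 to 0.347 over its 21 alternatives. BAX exons are 58.9% G and C. In OE-MMP28 replicate 1, genes of that composition lay on average 0.24 log2 units below their mean over the 6 libraries, and in OE-MMP28 replicate 3 they lay 0.17 above it. With that trend removed in each library, an alternative chosen after seeing the data, the BAX log2 fold change was 0.40 with an edgeR adjusted p of 0.0600.

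BAK1, the effector that resides in the mitochondrial membrane and is held by MCL1 and BCL-XL (ENSG00000030110, chr6:33572547-33580293, minus strand), was 17.8, 17.3 and 12.5 FPKM in Vector and 12.9, 17.5 and 17.2 FPKM in OE-MMP28. The 2 groups covered the same range, with 1 low library in each. The log2 fold change was 0.02 ± 0.181 (SE), its 95% interval ran from -0.36 to 0.40, and the sign changed with the scaling of the libraries (edgeR adjusted p = 0.959). In folds that interval covers 0.779 to 1.32.

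Among the BH3-only genes, PMAIP1 and BCL2L11 fell and the other 3 did not pass the test. PMAIP1 encodes NOXA, whose main partner is MCL1 (ENSG00000141682, chr18:59899948-59904306, plus strand). It was 33.4, 32.1 and 39.3 FPKM in Vector and 20.9, 20.3 and 19.8 FPKM in OE-MMP28. The OE-MMP28 libraries lay close together and all below the lowest Vector library. The means were 34.9 ± 3.81 and 20.3 ± 0.506 FPKM (SD, n = 3 each), 0.587-fold (95% interval 0.471 to 0.731), with a log2 fold change of -0.77 ± 0.152 (SE; edgeR Benjamini-Hochberg adjusted p = 0.00120). It was called lower under all 21 alternatives, with edgeR, limma or DESeq2 adjusted p from 6.92e-06 to 0.0158.

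BCL2L11 encodes BIM, a BH3-only protein that binds all guardians (ENSG00000153094, chr2:111119378-111168447, plus strand). It stood at 7.36, 6.32 and 7.76 FPKM in Vector and at 5.20, 4.35 and 3.35 FPKM in OE-MMP28. The groups did not overlap. The level was 0.605-fold (95% interval 0.470 to 0.779), a log2 fold change of -0.72 ± 0.175 (SE) with an edgeR Benjamini-Hochberg adjusted p of 0.00532. Its neighbours on the chromosome had values of the same sign, since the median log2 fold change of the 49 tested genes within 5 Mb on either side was -0.32. Measured against that median the log2 fold change was -0.41 and the call was lost (edgeR adjusted p = 0.123), whereas the adjusted p ran from 0.000831 to 0.123 over the 21 alternatives. The same regional median was 0.20 for PMAIP1, -0.06 for BCL2L1 and 0.02 for MCL1, each smaller in size than the change of the gene. On the other strand MIR4435-2HG, looked at after the values were seen, covers 10.9% of the BCL2L11 exon length and had 267 to 338 counts per library against 375 to 761 for BCL2L11, so reads in the shared stretch cannot be told apart. The log2 fold change of MIR4435-2HG was -0.08 (edgeR adjusted p = 0.783).

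BID, which carries the death receptor signal to mitochondria once caspase-8 has cut it (ENSG00000015475, chr22:17734138-17774770, minus strand), was 7.59, 7.31 and 7.23 FPKM in Vector and 6.29, 6.70 and 7.78 FPKM in OE-MMP28. BIK, a BH3-only protein of the endoplasmic reticulum (ENSG00000100290, chr22:43110748-43129712, plus strand), was 15.2, 13.5 and 12.2 FPKM in Vector and 9.75, 12.7 and 16.9 FPKM in OE-MMP28. BBC3 encodes PUMA, a damage-induced protein that binds all guardians (ENSG00000105327, chr19:47220822-47232766, minus strand), and was 1.09, 2.61 and 1.66 FPKM in Vector and 0.736, 1.45 and 1.57 FPKM in OE-MMP28. The groups overlapped for all 3 genes.

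Their log2 fold changes were -0.08 ± 0.161 for BID, -0.04 ± 0.213 for BIK and -0.49 ± 0.325 for BBC3 (SE), with edgeR Benjamini-Hochberg adjusted p of 0.765, 0.922 and 0.294. BBC3 was the least certain, with 37 to 112 counts per library and a 95% interval from -1.17 to 0.19. Its log2 fold change was -0.12 without Vector replicate 2, -0.24 without OE-MMP28 replicate 1 and -0.75 without Vector replicate 1. OE-MMP28 replicate 1 was the lowest of the 3 OE-MMP28 libraries for BAX, BAK1, BID, BIK and BBC3. For genes of the base composition of BBC3 (69.7% G and C) that library lay 0.52 log2 units below the mean of the 6 libraries, and for genes like PMAIP1 (37.2% G and C) it lay 0.17 above. Averaged over the 3 libraries of each group the same trend differed by at most 0.05 log2 units at any member's composition.

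**Figure D2:**
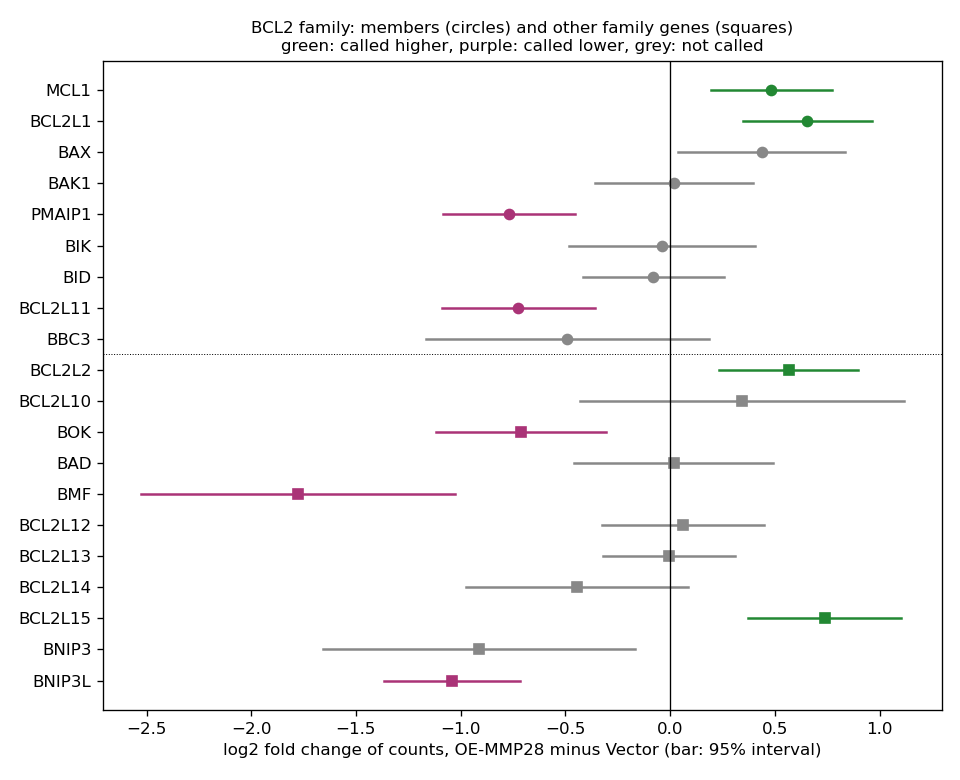
Log2 fold change of counts, OE-MMP28 minus Vector, with 95% intervals from edgeR, for the 9 tested members (circles) and the 11 tested other BCL2 family genes (squares), coloured by call at an adjusted p of 0.05. PMAIP1 at -0.77 and BCL2L11 at -0.72 lie left of 0, MCL1 at 0.48 and BCL2L1 at 0.66 lie right of it, and the interval of BAX starts at 0.04 although its adjusted p was 0.104.

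Placed in order of level, MCL1 came first in both groups and BCL2 last. In Vector the order by mean FPKM was MCL1 (102), BCL2L1 (35.5), PMAIP1 (34.9), BAK1 (15.8), BAX (15.5), BIK (13.6), BID (7.38), BCL2L11 (7.15), BBC3 (1.79) and BCL2 (0.0326). The ranges of neighbours overlapped between BCL2L1 and PMAIP1, among BAK1, BAX and BIK, and between BID and BCL2L11, so those places are not ordered. In OE-MMP28 it was MCL1 (142), BCL2L1 (55.4), BAX (20.7), PMAIP1 (20.3), BAK1 (15.9), BIK (13.1), BID (6.92), BCL2L11 (4.30), BBC3 (1.25) and BCL2 (0.0440 FPKM). There BCL2L1 stood clear of PMAIP1, BID stood clear of BCL2L11, and only BAX with PMAIP1 and BAK1 with BIK had neighbouring ranges that overlapped.

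The balance of pro-death over anti-death transcripts was taken within each library as the ratio of summed FPKM, which does not depend on how libraries are scaled to one another. It is a description of these 10 genes and was not tested. For replicates 1 to 3 the ratio stood at 0.702, 0.721 and 0.674 in Vector, and at 0.362, 0.447 and 0.446 in OE-MMP28. All OE-MMP28 libraries lay below all Vector libraries. On the log2 scale the means were -0.52 ± 0.0483 and -1.26 ± 0.174 (SD, n = 3 each), a difference of -0.75, and leaving out each library in turn gave -0.80 to -0.65.

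Both sides of the ratio contributed. The anti-death sum was 143, 128 and 142 FPKM in Vector and 195, 192 and 204 FPKM in OE-MMP28, and these ranges did not overlap. The pro-death sum was 100.5, 92.2 and 95.7 FPKM in Vector and 70.6, 86.0 and 91.0 FPKM in OE-MMP28, lower by a smaller amount, with OE-MMP28 replicate 1 the lowest of all 6 libraries. Unlike the ratio, these sums depend on how libraries are scaled to one another, and the nearest pro-death sums, 91.0 and 92.2 FPKM, lay close together. Pro-death transcripts made up 41.1% ± 0.810 of the summed level of the 10 genes in Vector and 29.4% ± 2.47 in OE-MMP28 (SD, n = 3 each).

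**Figure D3:**
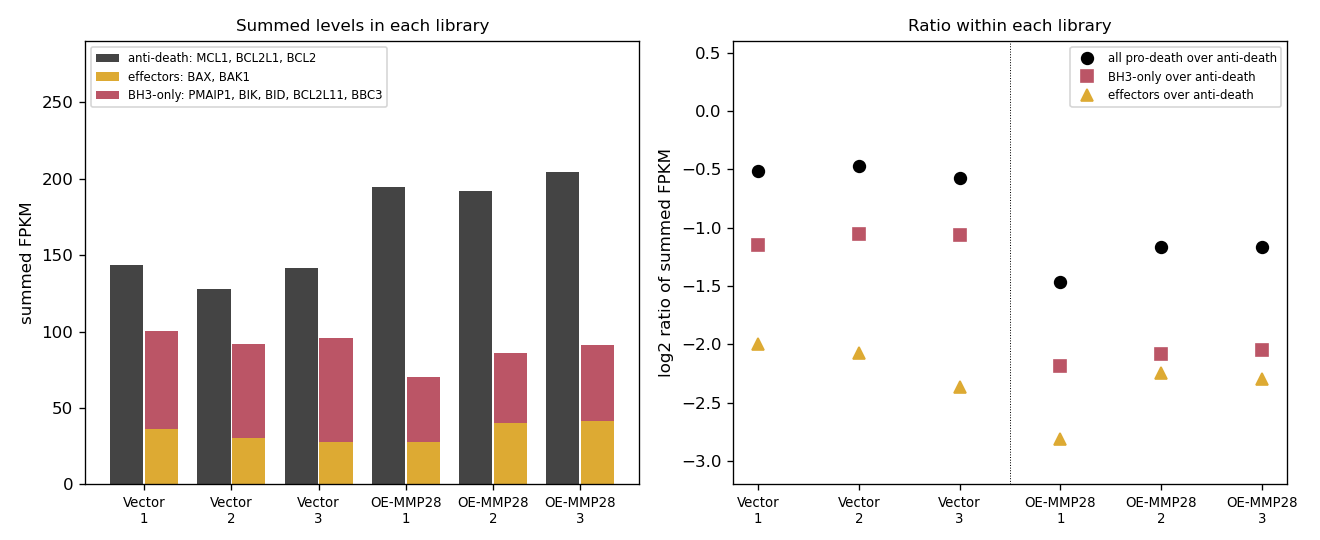
Left, summed FPKM of the anti-death members (dark) beside the stacked effectors and BH3-only members in each of the 6 libraries, from 0. Right, log2 ratio of summed FPKM in each library for all pro-death members (circles), BH3-only members (squares) and effectors (triangles) over the anti-death members, in which circles and squares separate the groups and triangles overlap.

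The lower ratio was clearest for the BH3-only sum, in which PMAIP1 weighed most. That sum was 64.6, 61.9 and 68.1 FPKM in Vector and 42.8, 45.5 and 49.4 FPKM in OE-MMP28, and its log2 ratio to the anti-death sum differed by -1.02 with no overlap. PMAIP1 went from 34.9 to 20.3 FPKM on average and BCL2L11 from 7.15 to 4.30 FPKM, while BID, BIK and BBC3 did not pass the test. The lower sum is therefore not read as a trait of all BH3-only genes. The effector sum was 36.0, 30.3 and 27.6 FPKM in Vector and 27.8, 40.5 and 41.5 FPKM in OE-MMP28, and its log2 ratio to the anti-death sum differed by -0.31 with overlapping groups. PMAIP1 supplied 36.4% ± 4.14 of the pro-death sum in Vector and 25.0% ± 4.04 in OE-MMP28, while BAX supplied 16.0% ± 1.95 and 24.8% ± 3.30 (SD, n = 3 each). On the other side MCL1 supplied 74.2% and 71.9% of the anti-death sum, BCL2L1 25.8% and 28.1%, and BCL2 0.0232% and 0.0224%.

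The difference in balance was smaller without the members that fell. Without PMAIP1 it was -0.51 on the log2 scale, and without both PMAIP1 and BCL2L11 it was -0.44, settings chosen after seeing the data. Without MCL1 it was -0.87, without BAX -0.91, from counts in place of FPKM -0.78, from the mean of log2(FPKM + 0.1) in place of sums -0.66, and with 7 other family genes added -0.79. The groups did not overlap in any of these 7 versions.

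Ratios of known partners restate the changes of the single members. A member lower in every OE-MMP28 library over a member higher in every one must separate the groups, so such a ratio is no further evidence. NOXA and MCL1 bind each other, and PMAIP1 over MCL1 was 0.316, 0.343 and 0.365 in Vector and 0.143, 0.150 and 0.138 in OE-MMP28, a log2 difference of -1.25 without overlap. BCL2L11 over BCL2L1 was 0.195, 0.184 and 0.226 in Vector and 0.107, 0.0764 and 0.0556 in OE-MMP28, a log2 difference of -1.39 without overlap. BCL2L11 over MCL1 differed by -1.22, also without overlap. The effector ratios overlapped between groups: BAX over BCL2L1 differed by -0.24, BAX over MCL1 by -0.07 and BAK1 over MCL1 by -0.47. Between the guardians, BCL2L1 over MCL1 differed by 0.17 with overlapping groups.

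Beyond the members, 5 lists of related genes held 69 genes, of which 65 were tested, 9 rose and 11 fell, against 11.7% and 11.6% of all genes tested. The counts of the single lists that follow are small, and none is read as a property of its list. The median log2 fold change of the 65 genes was -0.01, against 0.01 for all genes tested. Of the 20 genes called, 10 were also called without each library in turn and 5 under every alternative run: BCL2L15, BNIP3L, FAS, AEN and CDC20.

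Of 13 other BCL2 family genes, 11 were tested, 2 rose and 3 fell. BCL2L15, a pro-death relative found in the gut epithelium, rose with a log2 fold change of 0.74 ± 0.175, from 1.82 to 3.01 FPKM on average. BNIP3L, a mitochondrial protein of mitophagy also called NIX, fell by 1.04 ± 0.156 on the log2 scale, from 39.5 to 19.0 FPKM, and had the highest Vector level of this list. BMF, a BH3-only protein, fell by 1.78 ± 0.359 on the log2 scale from 58, 130 and 69 counts to 18, 36 and 30, and its call was lost in limma on log2(FPKM + 1) and log2(FPKM + 0.1), with log2 fold changes of -0.65 and -1.46. The edgeR Benjamini-Hochberg adjusted p of these 3 was 0.00471, 8.29e-05 and 0.00143.

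The guardian gene BCL2L2 rose (log2 fold change 0.57 ± 0.160, edgeR adjusted p = 0.0142) and the BAX-like gene BOK fell (-0.71 ± 0.195, edgeR adjusted p = 0.0120). BCL2L2 lost its call without Vector replicate 3 (0.56, edgeR adjusted p = 0.0649) and without OE-MMP28 replicate 2 (0.48, edgeR adjusted p = 0.112), and against the median of its chromosomal neighbours it was -0.04. BOK lost its call without Vector replicate 1 (-0.52, edgeR adjusted p = 0.0566), against the median of its neighbours (-0.38, edgeR adjusted p = 0.196) and in limma on FPKM with either pseudocount. The adjusted p ran from 0.00417 to 0.894 for BCL2L2 and from 0.00176 to 0.196 for BOK over their alternatives. HRK had 0 counts in all 6 libraries, and BCL2A1 at most 1 count.

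Of 18 genes of the cytochrome c and caspase arm, 3 rose and 1 fell, with a median log2 fold change of -0.12. CYCS, cytochrome c itself, rose from 40.4 to 63.9 FPKM (log2 fold change 0.67 ± 0.174, edgeR adjusted p = 0.00816), and AIFM1, the flavoprotein apoptosis-inducing factor, rose from 18.5 to 26.1 FPKM (0.51 ± 0.144, 0.0143). The call of AIFM1 was lost without Vector replicate 3 (0.49) and without OE-MMP28 replicate 2 (0.51), and that of CYCS in limma on FPKM values. VDAC1, a channel of the outer membrane with the highest level of this list, went from 149 to 194 FPKM (0.39 ± 0.138, edgeR adjusted p = 0.0456), a call that held in 4 of 21 alternatives and was lost without any single library (0.33 to 0.44). VDAC2, a channel that binds BAK1, fell from 79.0 to 57.5 FPKM (-0.45 ± 0.144, 0.0287), and its call held in 14 of 21, being lost without Vector replicate 1 or 3 or OE-MMP28 replicate 2 or 3 (-0.45 to -0.39). The caspase genes CASP6, CASP8 and CASP9 and the adaptor gene APAF1 had log2 fold changes from -0.24 to -0.11, none past the test.

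Of 8 inhibitor of apoptosis genes, none rose and 2 fell, BIRC6 and NAIP. BIRC6, a giant ubiquitin ligase, fell by 0.65 ± 0.153 on the log2 scale (edgeR adjusted p = 0.00445), but the median of its neighbours was -0.57, and against that median the call was lost (-0.08, edgeR adjusted p = 0.778). NAIP (-1.36, edgeR adjusted p = 0.0349) lost its call without Vector replicate 3 (-0.88), OE-MMP28 replicate 2 (-1.03) or OE-MMP28 replicate 3 (-1.42). NAIP held 6 to 49 counts per library and lies in a duplicated segment, so its reads may be shared with copies. BIRC2, which had the highest level of the list, was 28.8 ± 1.22 and 30.1 ± 3.99 FPKM (SD, n = 3 each), and BIRC5, encoding survivin, had a log2 fold change of 0.27 (edgeR adjusted p = 0.213).

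Of 24 upstream regulators of apoptosis and genes of the DNA damage response, 22 were tested, 3 rose and 4 fell, so the list moved both ways. FAS, a death receptor, fell by 1.43 ± 0.176 on the log2 scale, from 8.07, 6.56 and 6.51 FPKM to 2.60, 2.69 and 2.52 (edgeR adjusted p = 9.55e-06). TNFRSF10B, the TRAIL receptor, fell by 0.67 ± 0.140 on the log2 scale, from 44.4 to 27.7 FPKM (edgeR adjusted p = 0.00178), and RRM2B, a subunit of ribonucleotide reductase, by 0.69 ± 0.167 (edgeR adjusted p = 0.00551). Against the median of their chromosomal neighbours both calls were lost, at -0.32 for TNFRSF10B (edgeR adjusted p = 0.127) and -0.39 for RRM2B (edgeR adjusted p = 0.118). AEN, a nuclease of apoptosis, rose by 0.85 ± 0.193 (edgeR adjusted p = 0.00345). CDKN1A (log2 fold change 0.66) and E2F1 (0.61) rose, but their calls were lost without any 1 of Vector replicates 2 and 3 and OE-MMP28 replicates 2 and 3, with log2 fold changes of 0.51 to 0.66 and 0.48 to 0.58, while CDKN1A was 0.99 without Vector replicate 1. BTG2 fell (-0.79), a call lost without Vector replicate 2 (-0.42), OE-MMP28 replicate 2 (-0.75) or OE-MMP28 replicate 3 (-0.77).

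FOXO3, ATF4 and DDIT3, which are known to act on BH3-only genes, did not pass the test. FOXO3, a forkhead factor that can drive BCL2L11, had a log2 fold change of -0.44 (edgeR adjusted p = 0.0769). ATF4, a stress factor that can drive PMAIP1 and had the highest level of its list, went from 118 ± 7.50 to 102 ± 11.7 FPKM (log2 fold change -0.20, edgeR adjusted p = 0.338). DDIT3, encoding the stress factor CHOP, had a log2 fold change of -0.32 (edgeR adjusted p = 0.312).

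Of 6 genes of MCL1 protein turnover, 1 rose and 1 fell, and over the 21 alternatives the number called lower ran from 0 to 3. MARCHF5 (log2 fold change -0.45, edgeR adjusted p = 0.0537) and FBXW7 (-0.41, edgeR adjusted p = 0.0638), which encode ubiquitin ligase components, lay just outside the threshold. The median log2 fold change of the chromosomal neighbours was -0.47 for MARCHF5, about its own value, and 0.03 for FBXW7. CDC20, an activator of the anaphase-promoting complex with the highest level of the list, rose from 36.6 to 58.0 FPKM (log2 fold change 0.68 ± 0.148, edgeR adjusted p = 0.00264). BTRC, a substrate receptor of a ubiquitin ligase, fell by 0.51 ± 0.158 on the log2 scale (edgeR adjusted p = 0.0233) and held its call in 16 of 21 alternatives, losing it without Vector replicate 2 or 3 or OE-MMP28 replicate 2 or 3 (-0.51 to -0.48) and against the median of its neighbours (-0.04, edgeR adjusted p = 0.905). HUWE1, the ligase known as MULE, and USP9X, the deubiquitinase of MCL1, had log2 fold changes of 0.08 and -0.01.

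**Figure D4:**
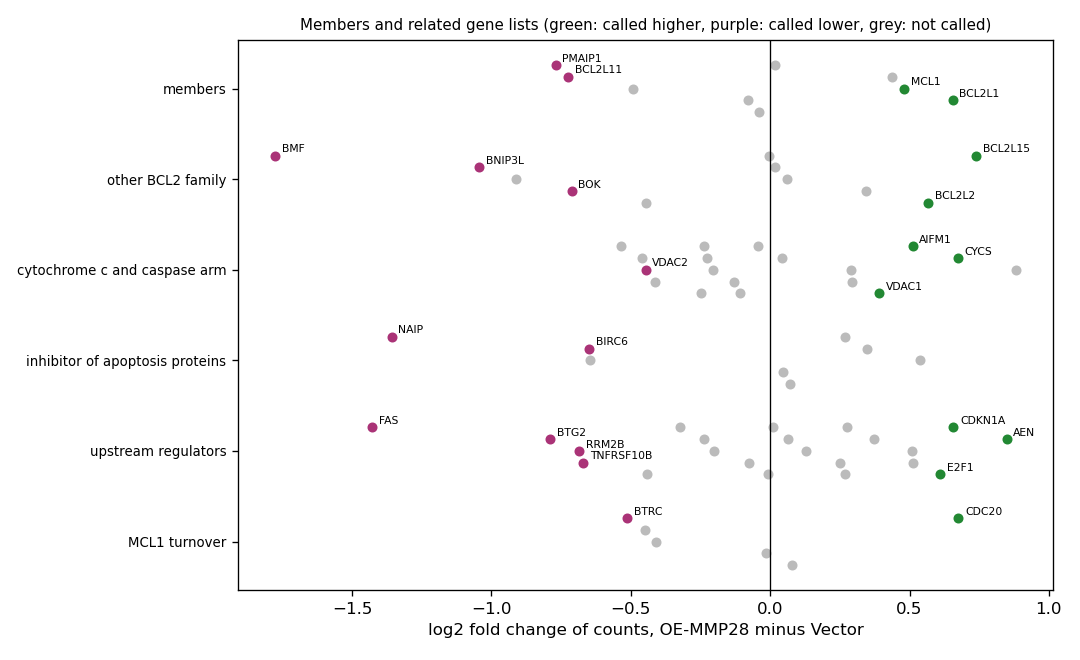
Log2 fold change of counts, OE-MMP28 minus Vector, for the tested genes of the members and of the 5 related lists, 1 point per gene with called genes named and coloured (green higher, purple lower, grey not called). Points lie on both sides of 0 in every list, with FAS at -1.43 and BMF at -1.78 farthest to the left and AEN at 0.85 the called gene farthest to the right.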

How the data were processed

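RNA of AsPC-1 cells was measured in 6 libraries, 3 Vector and 3 OE-MMP28, grouped by the titles and treatments in the labels. The authors' deposited table held raw read counts per gene and library and FPKM values, scaled by gene length and library size. The library size behind the FPKM values was not exactly the count total. Counts and FPKM were each made 1 column per library, without pooling. The submitters' processing notes name HISAT2 2.0.5 and featureCounts 1.5.0-p3. The genome build, the strand setting and the handling of reads with several matches are not given in the sources used here. All 58735 gene identifiers and positions matched GENCODE release 29 on GRCh38. The authors' own fold changes and p-values in that table were not used.

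Counts were tested with edgeR 4.0.16 (R 4.3.3, quasi-likelihood test, TMM scaling, group as the only term) on genes kept by filterByExpr (minimum count 10, total 15). P-values were adjusted over 15319 genes by the Benjamini-Hochberg procedure and genes were called at 0.05. FPKM served for levels, for ratios within a library and for two-sided exact permutation tests (scipy 1.17.1). The scripts were tested on simulated data. Fold changes come from counts and levels from FPKM.

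The members, the 5 related lists and the motifs were chosen with earlier results of these data known. Named were all members, MMP28 and, from the lists, genes called and the gene of each list with the highest level. Other list genes (DDIT3, FOXO3, BIRC5, HUWE1, USP9X, MARCHF5, FBXW7, HRK, BCL2A1, APAF1, CASP6, CASP8 and CASP9) were named for their role, after their values had been seen, as were ABALON, MIR4435-2HG and the cell markers singled out. A few list genes are not reported here by name.

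Alternatives were leaving out each library, a replicate block, upper-quartile, RLE and total count scaling, other filters on low counts, protein-coding genes only, removal of mitochondrially encoded genes, DESeq2 1.42.0, limma 3.58.1 on log2(FPKM + 1) and log2(FPKM + 0.1), limma voom and an offset for the median log2 fold change of tested genes within 5 Mb. Offsets for GC content were added after seeing the data.

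Same-numbered libraries were not taken as pairs, since their deviations from the group means correlated at only -0.09, 0.01 and 0.02. No 2 libraries agreed within counting noise, with a chi-square per degree of freedom of at least 13.9.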

Additional observations from a re-analysis of the deposited data

How the results depend on the processing

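Of the members, BCL2L1, PMAIP1, BID and BBC3 kept their direction and call under all 21 alternatives, and MCL1, BCL2L11 and BAX kept their direction. BAK1, close to 0, reversed under upper-quartile (-0.029), RLE (-0.0023) and total count scaling (-0.0012), the filter of 1 CPM (-0.0085), protein-coding genes only (-0.0018), removal of mitochondrial genes (-0.012), DESeq2 (-0.0023) and the offset for the local median (-0.037). Without single libraries it ran from -0.13 to 0.13 and BIK from -0.27 to 0.12. The offset for the local median also reversed BCL2L2 (-0.043) and VDAC2 (0.020). The cause of these reversals was not tested. Without single libraries the members called higher numbered 1 to 3 and those lower 2, and with the local median offset 1 was lower. All genes called higher then fell from 1795 to 1138. They numbered 985 (without OE-MMP28 replicate 2) to 1916 without single libraries, with 1136 without Vector replicate 3, against 1009 and 1000 in limma on FPKM with pseudocounts of 1 and 0.1. All genes called lower were 1784, with 1044 to 1949 without single libraries and 965 and 970 in limma. The related lists, 9 higher and 11 lower, gave 4 to 10 and 7 to 13 without single libraries, 5 and 6 in limma with either pseudocount, and 6 lower with the local median offset. The balance, -0.75, was -0.31 for effectors, -1.02 for BH3-only members, -0.51 without PMAIP1 and -0.44 without PMAIP1 and BCL2L11, the last pair chosen after seeing the data. With a replicate block, 2 members were higher and 2 lower, all genes gave 1844 and 1841, and BAX was 0.42 (edgeR adjusted p = 0.0925), while the replicate numbers share only a number. Depth limits BCL2, with 2 to 12 counts, and BBC3.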
